A study of Saccharomyces cerevisiae with 26 samples.

Results

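The 10 genes described here are a set of zinc homeostasis genes of Saccharomyces cerevisiae and known targets of the zinc-responsive activator Zap1. They were picked by name from the 6692 open reading frames (ORFs) in the count table. They are the activator gene ZAP1 (YJL056C), the plasma membrane zinc uptake genes ZRT1 (YGL255W) and ZRT2 (YLR130C), the vacuolar zinc genes ZRT3 (YKL175W) and ZRC1 (YMR243C), the early secretory zinc transporter subunit gene ZRG17 (YNR039C), the alcohol dehydrogenase gene ADH4 (YGL256W), the cell surface protein gene ZPS1 (YOL154W), and the paralogs VEL1 (YGL258W) and YOR387C. The choice rests on measured values: ZRT1, ZRT2, ZRT3, ADH4 and ZPS1 were selected on their values in cup1F8* against WT and in H3A110Ccup1F8* against cup1F8*, and the list was completed with earlier results of these data known. Values of the 10 genes in every comparison with a cup1F8* strain are therefore given as a description, without a test.

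Zap1 binds zinc directly and loses its activity when zinc is plentiful. In zinc-poor cells it binds a palindromic DNA site, the zinc-responsive element, upstream of its targets, which include its own gene, the uptake transporters and the vacuolar exporter that returns stored zinc to the cytosol. Zinc-poor yeast also make less of the zinc-rich alcohol dehydrogenases Adh1 and Adh3 and more of Adh4. Metallothionein (Cup1) and glutathione, the product of the pathway that Gsh1 starts, both bind metal ions in the cytosol.

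The study sequenced poly(A) RNA of haploid yeast of the BY4741 background, with a strain series built to change histone H3 residue 110 from alanine to cysteine (H3A110C) in both H3 genes. In SCEG, a synthetic complete medium with ethanol and glycerol, the strains were H3A110Ccup1F8* and cup1F8* (4 libraries each; cup1F8* carries a stop codon in every CUP1 copy), H3A110Cgsh1Δ and gsh1Δ (3 each; GSH1 replaced by a KanMX6 cassette), and H3A110C and WT (3 each). In SC, the same medium with glucose, H3A110C and WT were sequenced (3 each). That made 26 libraries in 8 groups, from cultures grown for 2 to 3 doublings. The study reports that gsh1Δ and H3A110Cgsh1Δ did not grow in oxidative medium unless glutathione was added. Its RNA methods do not say whether it was added for these libraries. Genotype and any difference in glutathione supply or growth cannot be told apart in the gsh1Δ comparisons. The RNA came from whole cultures, so more expressing cells and more RNA per cell cannot be told apart.

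Total counts were 7579367 to 10133258 in the cup1F8* strains, 2917138 to 6013267 in the other SCEG strains and 9428849 to 12305863 in SC. GSH1 had 0 counts in the 6 gsh1Δ libraries and at least 479 in each other library, as the strain labels require. Reads on CUP1-1 and CUP1-2 were counted in the 6 SC libraries, whereas both genes stood at 0 counts in each of the 20 SCEG libraries whatever the strain, so the CUP1 genotype could not be checked and medium and read handling cannot be told apart. The cup1F8* strains also differed in depth from the strains they are set against, except for each other. Their count columns are numbered as a set after those of the other SCEG strains. Some of the S numbers that end the sample descriptions occur in both sets. The labels do not say whether the sets were prepared or sequenced apart. Libraries were named by the replicate number of the labels in SCEG, and by the letter A, B or C of the count table columns in SC. Both letter B libraries stood apart from letters A and C over all genes.

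To show what the Zap1 targets share in sequence, the 500 bases before each ORF were searched on both strands of the R64 genome for the zinc-responsive element, written ACCTTNAAGGT, which reads the same on both strands. An exact match lay upstream of 2 of the 10 genes, against 0.150% of 6003 ORFs searched. With up to 1 mismatch it was found upstream of 7 of the 10 genes, against 1.97% of ORFs, and with up to 2 mismatches upstream of 9, against 19.4%. The genes were listed as Zap1 targets, so these counts describe the list and are not independent of it. The matches with 0 or 1 mismatch are shown 5′ to 3′ on the strand of the gene, with the 11 bases of the match in capitals and RefSeq R64 coordinates of the stretch shown.
ZRT1, exact, chrVII:20765-20793 (+ strand): acatatttgACCTTGAAGGTcatggaaag
ZRG17, exact, chrXIV:699496-699524 (− strand): aaatgatgaACCTTGAAGGTatttttgtt
ZRT1, 1 mismatch, chrVII:20650-20678 (+ strand): accaaagatACCCTCAAGGTtctcatctg
ZAP1, 1 mismatch, chrX:333198-333226 (− strand): cagtcatctACCCTAAAGGTcatgatgaa
ZRT2, 1 mismatch, chrXII:404354-404382 (− strand): agggacataACCCTAAAGGTtatatgcga
ZRT2, 1 mismatch, chrXII:404305-404333 (− strand): tttttcacaACCTTTAGGGTacattgccc
ZRT3, 1 mismatch, chrXI:118629-118657 (+ strand): gtgacaacaACCTTAAGGGTaatggactt
ZRC1, 1 mismatch, chrXIII:756321-756349 (− strand): cttcagatgGCCTTGAAGGTgaggaatga
ZPS1, 1 mismatch, chrXV:34320-34348 (+ strand): ttataattgACCTTCAGGGTtaggaccct
ZPS1, 1 mismatch, chrXV:34335-34363 (+ strand): agggttaggACCCTGAAGGTtttttgtag

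The ZPS1 matches lie 329 to 319 and 314 to 304 bases before the ORF. VEL1 and YOR387C each held 1 match with 2 mismatches, 128 to 118 bases before the ORF. ADH4 held no match within 500 bases. The divergent gene MNT2, which lies between VEL1 and ADH4, held 1 match with 1 mismatch whose 11 bases, at chrVII:14641-14651, are 518 to 508 bases before the ADH4 ORF, just beyond the window searched. A match is a description of the letters and was not tested for binding.

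**Figure D1:**
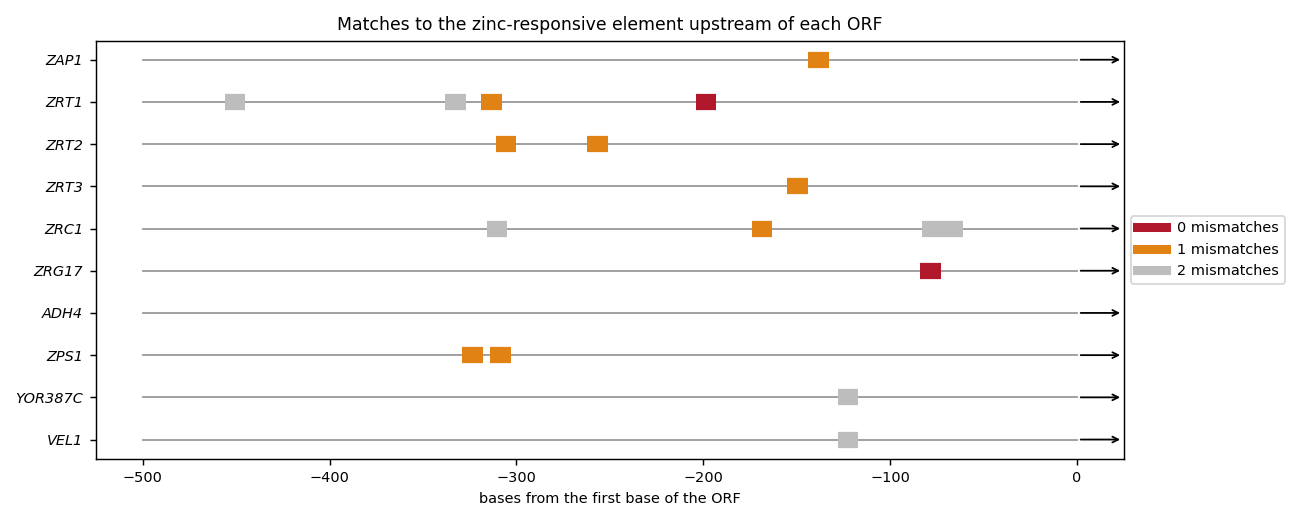
Matches to the zinc-responsive element (coloured blocks, by number of mismatches) along the 500 bases before the ORF of each of the 10 genes; the x axis gives the distance in bases from the first base of the ORF. ZRT1 held 4 matches with up to 2 mismatches, and ADH4 held 0.

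ZRT1, ADH4 and VEL1 are close to each other on chromosome VII, with VEL1 at chrVII:11110-11730, MNT2 at chrVII:12481-14157, ADH4 at chrVII:15159-16307 and ZRT1 at chrVII:20978-22108. ZPS1 is at chrXV:34658-35407 and YOR387C at chrXV:1069621-1070241. The others lie apart, ZAP1 at chrX:330431-333073, ZRT2 at chrXII:402794-404062, ZRT3 at chrXI:118793-120304, ZRC1 at chrXIII:754838-756166 and ZRG17 at chrXIV:697614-699431. VEL1 and YOR387C are both 621 bases long and differ at 47 positions, an identity of 92.4%. The longest stretch without a difference is 62 bases, and 97.7% of the 50-base windows of each gene occur once in the genome, so reads of that length could be assigned to either paralog over most of the ORF. The 100 bases (ORF positions 453 to 552) that hold the most differences, 14, show how far the pair can be told apart, with the differing bases in capitals.
VEL1, chrVII:11562-11661 (+ strand): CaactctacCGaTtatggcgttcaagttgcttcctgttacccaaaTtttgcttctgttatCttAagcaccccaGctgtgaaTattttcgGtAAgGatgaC
YOR387C, chrXV:1069690-1069789 (− strand): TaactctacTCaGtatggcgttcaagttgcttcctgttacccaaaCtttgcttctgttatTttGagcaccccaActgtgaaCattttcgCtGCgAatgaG
For the other 8 genes every 50-base window was unique.

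Levels are given in CPM, read counts scaled to a common library size and normalized by the TMM method over the 26 libraries. ZPS1 showed the widest range of the 10 genes. It had 8.38, 8.37, 8.89 and 7.85 CPM in H3A110Ccup1F8*, against 3257, 3395, 2908 and 3847 CPM in cup1F8*. These groups did not overlap, and the cup1F8* mean was 400.4 times that of H3A110Ccup1F8*. In the other SCEG strains ZPS1 lay between 10.3 and 21.0 CPM, so the H3A110Ccup1F8* libraries were also below every other library measured.

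**Figure D2:**
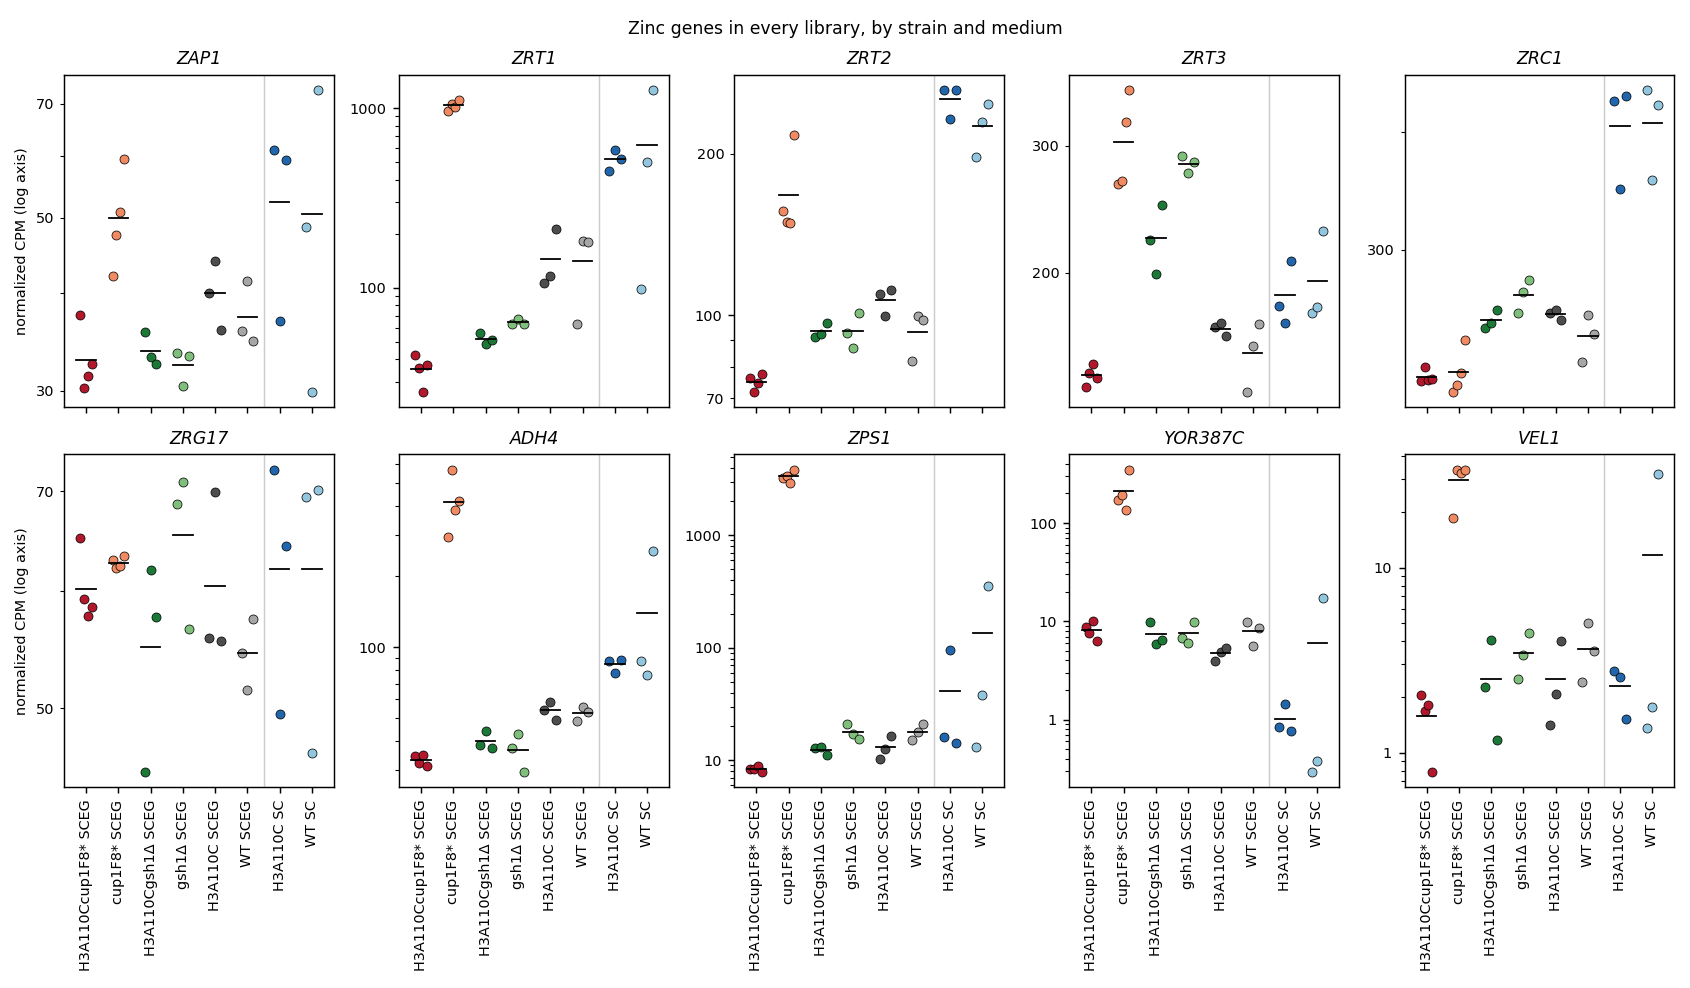
Normalized CPM (log axis) of the 10 genes in each of the 26 libraries (points), by strain and medium, with group means as bars; the line parts SCEG from SC. In cup1F8*, ZPS1 (2908 to 3847 CPM) and YOR387C (135 to 351 CPM) were above all other libraries, whereas ZRG17 stayed between 45.3 and 72.4 CPM in every library.

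ZRT1, the high-affinity uptake transporter, had 42.4, 35.6, 26.2 and 37.3 CPM in H3A110Ccup1F8*, against 958, 1059.7, 1012 and 1109 CPM in cup1F8*. Its cup1F8* mean was 29.3 times higher, and the groups did not overlap. The order of the means was cup1F8*, WT in SC, H3A110C in SC, H3A110C in SCEG, WT in SCEG, gsh1Δ, H3A110Cgsh1Δ and H3A110Ccup1F8*. Libraries of neighbouring groups in that order overlapped, except between H3A110C in SC and H3A110C in SCEG, between gsh1Δ and H3A110Cgsh1Δ, and between H3A110Cgsh1Δ and H3A110Ccup1F8*. ZRT2, the low-affinity uptake transporter, had 76.4, 71.8, 74.6 and 77.5 CPM in H3A110Ccup1F8*, against 157, 149, 148 and 217 CPM in cup1F8*. Here replicate 4 of cup1F8* stood above the other 3, and without it the log2 fold change was -1.05 in place of -1.21.

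ZRT3, which releases zinc from the vacuole, had 139, 145, 149.8 and 143 CPM in H3A110Ccup1F8*, against 266, 268, 323 and 359 CPM in cup1F8*. ZRC1, which carries zinc into the vacuole, had 218, 225, 218 and 219 CPM in H3A110Ccup1F8*, against 211, 215, 222 and 240.4 CPM in cup1F8*, and its groups overlapped. ZRG17, part of a zinc transporter of the early secretory pathway, had 65.1, 59.2, 57.7 and 58.5 CPM in H3A110Ccup1F8*, against 62.9, 62.2, 62.3 and 63.3 CPM in cup1F8*, again with overlap. ZRC1 and ZRG17 were the 2 members whose groups overlapped in this comparison. ZAP1 itself had 37.5, 30.2, 31.4 and 32.5 CPM in H3A110Ccup1F8*, against 42.1, 47.6, 50.9 and 59.6 CPM in cup1F8*, a difference much smaller than those of ZRT1 and ZPS1.

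ADH4 had 34.5, 32.2, 34.8 and 31.3 CPM in H3A110Ccup1F8*, against 294, 569.7, 383 and 417 CPM in cup1F8*. YOR387C had 8.84, 7.64, 10.1 and 6.38 CPM in H3A110Ccup1F8*, against 171, 193, 135 and 351 CPM in cup1F8*. VEL1 had 2.05, 1.67, 1.80 and 0.785 CPM in H3A110Ccup1F8*, against 18.6, 33.8, 32.5 and 33.9 CPM in cup1F8*. All 3 genes had separate groups, and replicate 1 of cup1F8* was the lowest for VEL1 and ADH4. Because the paralogs have the same length their levels can be set side by side. YOR387C was above VEL1 in all 20 SCEG libraries (1.13 to 10.3 times) and below it in all 6 SC libraries (0.214 to 0.56 times). In the SC libraries other than library C of WT, YOR387C had at most 14 counts. As with the CUP1 genes, medium and read handling cannot be told apart in this difference.

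Fitted log2 fold changes in H3A110Ccup1F8* against cup1F8*, a comparison between strains of similar depth, ran from -8.69 ± 0.11 (SE) for ZPS1 to -0.06 ± 0.05 for ZRC1. They were -4.91 ± 0.12 for ZRT1, -4.74 ± 0.31 for YOR387C, -4.28 ± 0.26 for VEL1, -3.69 ± 0.17 for ADH4, -1.21 ± 0.11 for ZRT2, -1.12 ± 0.09 for ZRT3, -0.65 ± 0.11 for ZAP1 and -0.10 ± 0.06 for ZRG17. The median was -2.45 over the 10 genes and -0.01 over all genes fitted. All 10 estimates were negative, and 8 of the 10 genes had lower values in every H3A110Ccup1F8* library than in any cup1F8* library. Of 5906 genes tested, 18.9% were lower without overlap in the same way, and the edgeR test called 24.6% higher and 25.9% lower. Since the genes were chosen on this contrast, the spread among them is a description.

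In cup1F8* against WT the signs were mostly the other way. ZPS1 differed by 7.55 ± 0.16 on the log2 scale, YOR387C by 4.73 ± 0.41, VEL1 by 3.03 ± 0.32, ADH4 by 2.98 ± 0.21 and ZRT1 by 2.87 ± 0.31. ZRT3 (0.97 ± 0.12), ZRT2 (0.85 ± 0.14), ZAP1 (0.42 ± 0.13) and ZRG17 (0.20 ± 0.07) differed less, and ZRC1 was at -0.13 ± 0.07. WT in SCEG had 62.7, 182 and 180.1 CPM of ZRT1, and without replicate 1, the low one, the ZRT1 value was 2.51. The median was 1.92 over the 10 genes and 0.00 over all genes, and 9 of the 10 had no overlap and were higher in cup1F8*. Of 5904 genes tested, 2027 (34.3%) were higher without overlap, and edgeR called 34.3% higher and 34.8% lower. Strain, depth and the numbered set of columns change together in this comparison and cannot be told apart. It also shares the cup1F8* libraries with the comparison above.

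The double mutant was also set against H3A110C, the strain with the histone change and intact CUP1. Here too, strain, depth and the numbered set of columns change together and cannot be told apart. ZRT1 was lower by 2.02 ± 0.22 on the log2 scale (42.4, 35.6, 26.2 and 37.3 CPM in H3A110Ccup1F8*, against 106, 116 and 213 CPM in H3A110C). ADH4 was at -0.69 ± 0.09, VEL1 at -0.67 ± 0.43, ZPS1 at -0.64 ± 0.17, ZRT2 at -0.50 ± 0.07 and YOR387C at 0.79 ± 0.23. The median was -0.38 over the 10 genes and 0.01 over all genes. Without overlap, 6 of the 10 were lower (ZRT1, ZRT2, ZRT3, ZRC1, ADH4 and ZPS1) and 1, YOR387C, was higher. VEL1, ZAP1 and ZRG17 overlapped. Of 5873 genes tested, 33.7% were lower and 34.7% higher without overlap, and edgeR called 35.1% higher and 33.9% lower. Without replicate 3 of H3A110C, which was the highest for ZRT1, ZRT1 was at -1.64 and ZPS1 at -0.46.

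**Figure D3:**
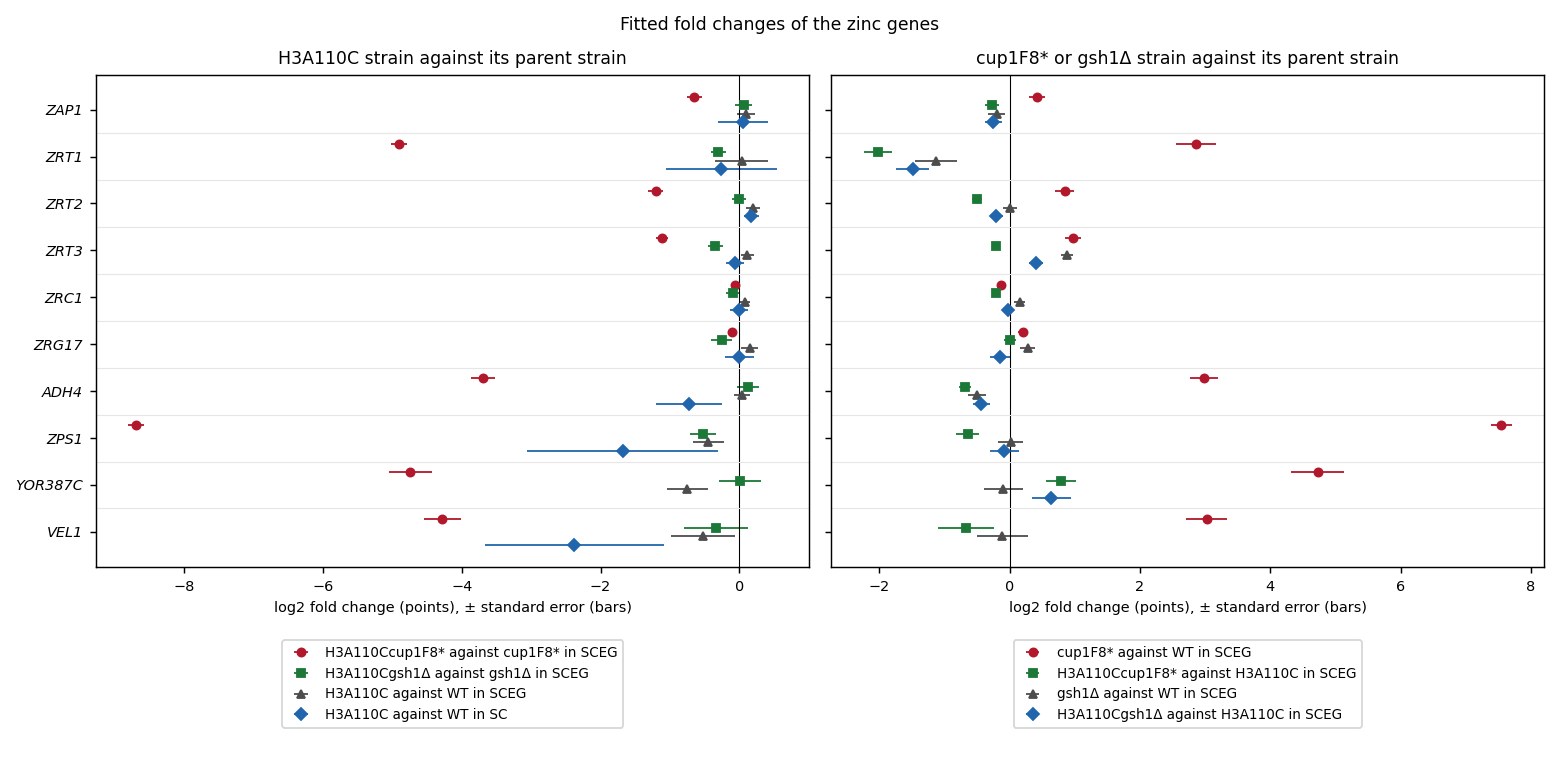
Fitted log2 fold changes (points) with standard errors (bars) of the 10 genes, for H3A110C strains against the strain without that change (left) and for cup1F8* or gsh1Δ strains against the strain without that mutation (right). ZPS1 ran from -8.69 in H3A110Ccup1F8* against cup1F8* to 7.55 in cup1F8* against WT; a point is missing where the gene did not pass the filter on low counts.

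Other genes that Zap1 activates were counted as a list of 22, chosen by name with the results of the 10 genes known. Those called by the edgeR quasi-likelihood test at an adjusted p below 0.05 were 4 higher and 11 lower in H3A110Ccup1F8* against cup1F8*, next to the 24.6% and 25.9% of all genes. RTC4 fell by 1.51 ± 0.15 on the log2 scale (adjusted p = 8.51e-06), the transcriptional repressor gene NRG2 fell by 1.03 ± 0.09 (adjusted p = 2.35e-06), and MCD4, which acts in GPI anchor synthesis, fell by 0.98 ± 0.09 (adjusted p = 4.23e-06). RTC4 and MCD4 each hold an exact element upstream, as do 2 of the 22 genes in all. The catalase gene CTT1 rose by 0.83 ± 0.16 (adjusted p = 0.00109). The list median was -0.29.

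In cup1F8* against WT, 12 of the 22 genes rose and 5 fell, next to the 34.3% and 34.8% of all genes. CTT1 rose by 1.55 ± 0.29 (adjusted p = 0.00087), IZH4, a membrane protein gene of the zinc-linked IZH family, by 1.31 ± 0.20 (adjusted p = 0.000221), and FET4, a low-affinity metal uptake transporter gene, by 1.06 ± 0.16 (adjusted p = 0.000178). KTI12 fell by 1.39 ± 0.12 (adjusted p = 2.82e-06). In H3A110Ccup1F8* against H3A110C, 8 rose and 7 fell, next to 35.1% and 33.9% of all genes. CTT1 rose there by 3.21 ± 0.18 (adjusted p = 5.18e-08). Both counts in that last comparison were near the share over all genes.

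ADH1 and ADH3, which zinc-poor cells make less of, differed in the other direction from ZPS1 and ZRT1 in both comparisons. ADH1, the main fermentative enzyme, had 2051, 2309, 2095 and 2080.2 CPM in H3A110Ccup1F8*, against 887, 775, 916 and 868 CPM in cup1F8*. WT in SCEG had 2991, 2579.9 and 2439.8 CPM, so cup1F8* was the lowest of the 3 strains. ADH1 rose by 1.26 ± 0.06 in H3A110Ccup1F8* against cup1F8* (adjusted p = 3.67e-08) and fell by 1.64 ± 0.09 in cup1F8* against WT (adjusted p = 1.75e-07). ADH3, the mitochondrial enzyme, rose by 1.20 ± 0.05 (adjusted p = 2.01e-08) and fell by 1.77 ± 0.07 (adjusted p = 3.28e-08) in the same comparisons. In H3A110Ccup1F8* against H3A110C both fell, ADH1 by 0.42 ± 0.08 (adjusted p = 0.000515) and ADH3 by 0.52 ± 0.07 (adjusted p = 6.24e-05). About 86.0% of the 50-base windows of ADH1 are unique, so some of its reads may be shared with other alcohol dehydrogenase genes.

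Of 5 other zinc transporter and related genes, 3 rose and 1 fell in H3A110Ccup1F8* against cup1F8*, next to 24.6% and 25.9% of all genes. In cup1F8* against WT, 0 rose and 4 fell, next to 34.3% and 34.8% of all genes. The 3 that rose in the first comparison were COT1, IZH3 and MSC2, named after their values were seen. MSC2, which encodes the partner of Zrg17, rose by 0.22 ± 0.08 (adjusted p = 0.0301). COT1, a vacuolar transporter gene for zinc and cobalt, rose by 0.52 ± 0.08 in H3A110Ccup1F8* against cup1F8* (adjusted p = 0.000153). IZH3 rose by 0.46 ± 0.10 there (adjusted p = 0.0021) and fell by 0.92 ± 0.12 in cup1F8* against WT (adjusted p = 8.64e-05). PHO84, a phosphate transporter gene, fell by 0.67 ± 0.15 in cup1F8* against WT (adjusted p = 0.00256). It was also the 1 gene that fell in H3A110Ccup1F8* against cup1F8*, by 0.33, so it was lower in both comparisons.

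**Figure D4:**
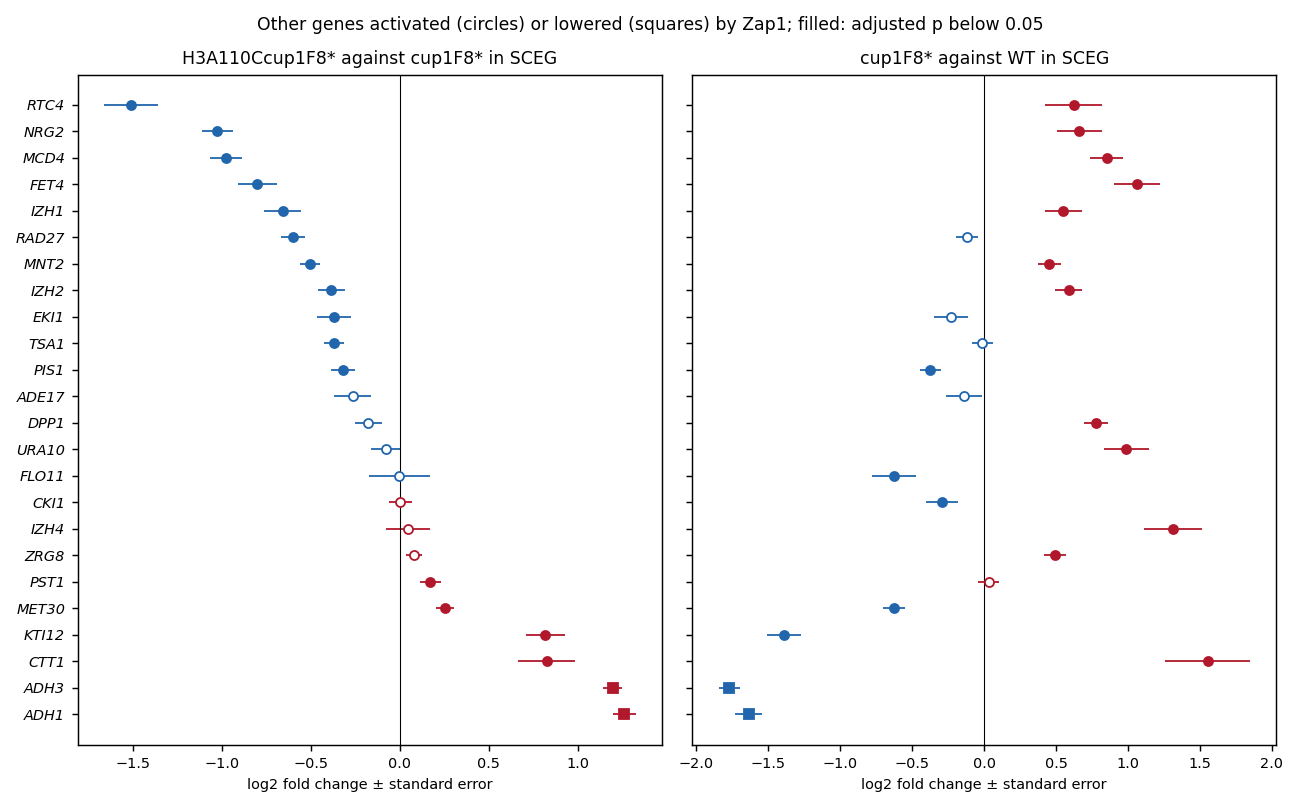
Log2 fold change ± standard error of 22 other Zap1-activated genes (circles) and the Zap1-lowered genes ADH1 and ADH3 (squares) in H3A110Ccup1F8* against cup1F8* (left) and cup1F8* against WT (right); filled symbols passed an adjusted p of 0.05, red is higher and blue lower. RTC4 was the lowest at -1.51 and ADH1 the highest at 1.26 on the left.

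Among genes adjacent to members, MNT2 is given for its place between VEL1 and ADH4. FZF1, HPF1 and FRE7 were picked after their values were seen. MNT2 fell by 0.50 ± 0.06 in H3A110Ccup1F8* against cup1F8* (adjusted p = 2.19e-05) and rose by 0.45 ± 0.08 in cup1F8* against WT (adjusted p = 0.000482). FZF1, on the other side of ZRT1, rose by 0.78 ± 0.08 (adjusted p = 1.46e-05) and fell by 1.26 ± 0.10 (adjusted p = 1.99e-06) in the same comparisons, the opposite of ZRT1. HPF1, next to ZPS1, fell by 1.35 ± 0.16 (adjusted p = 3.5e-05) and rose by 1.48 ± 0.25 (adjusted p = 0.000355). FRE7, on the other side of ZPS1, rose by 0.45 ± 0.12 in H3A110Ccup1F8* against cup1F8* (edgeR, adjusted p = 0.00962). In cup1F8* against WT, FRE7 was at -0.45 ± 0.19 (edgeR, adjusted p = 0.0509).

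Loss of GSH1 was compared in strains with intact CUP1. The selection above did not use this contrast, but it used the same WT libraries in SCEG, through cup1F8* against WT. Tests with these WT libraries, here and below, are therefore not fully independent of the selection. In gsh1Δ against WT in SCEG, 1 of the 10 genes rose and 2 fell at an adjusted p below 0.05 (edgeR), where 12.5% of 5678 genes were called higher and 12.8% lower, so the counts of members were near those shares. ZRT3 had 290.4, 275 and 285 CPM in gsh1Δ, against 137, 158 and 169.8 CPM in WT, without overlap. It rose by 0.88 ± 0.10 on the log2 scale (adjusted p = 0.000135, and at most 0.00164 under the 12 alternatives run). ZRT1 had 62.7, 66.9 and 62.7 CPM in gsh1Δ, against 62.7, 182 and 180.1 CPM in WT. It fell by 1.13 ± 0.32 (adjusted p = 0.025), but replicate 1 of WT was as low as gsh1Δ. ADH4 had 37.4, 42.8 and 29.5 CPM in gsh1Δ, against 48.6, 55.6 and 52.9 CPM in WT, and fell by 0.50 ± 0.14 (adjusted p = 0.0267). The ZRT1 call was lost without any 1 of gsh1Δ replicates 1, 2 and 3 or WT replicates 2 and 3 (adjusted p = 0.0721 to 0.0876) and with DESeq2 (adjusted p = 0.0589), and the ADH4 call without gsh1Δ replicate 1 or 3 or WT replicate 2 or 3 (adjusted p = 0.0557 to 0.0809). Over the 12 alternatives the adjusted p ran up to 0.0876 for ZRT1 and to 0.0809 for ADH4.

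ZPS1 had 21.0, 17.2 and 15.4 CPM in gsh1Δ, against 15.01, 17.9 and 20.9 CPM in WT (log2 fold change 0.02 ± 0.19, adjusted p = 0.951). Of the other 22 Zap1-activated genes, 3 rose and 4 fell in gsh1Δ against WT, next to 12.5% and 12.8% of all genes, so these counts were near those shares. MET30 rose by 0.82 ± 0.10 (adjusted p = 0.000336). CTT1 fell by 1.77 ± 0.33 (adjusted p = 0.00314), ADE17, of purine synthesis, by 1.32 ± 0.14 (adjusted p = 7.9e-05) and CKI1, choline kinase, by 0.71 ± 0.12 (adjusted p = 0.0021). COT1 rose by 1.60 ± 0.08 (adjusted p = 6.57e-07). Of ADH1 and ADH3, ADH3 alone was called, and fell by 0.37 ± 0.10 (adjusted p = 0.0219).

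With the histone change present, H3A110Cgsh1Δ against H3A110C called 1 of the 9 members that passed the filter on low counts, where 4.59% of 5685 genes were called higher and 4.03% lower. ZRT1 had 56.0, 48.6 and 50.9 CPM in H3A110Cgsh1Δ, against 106, 116 and 213 CPM in H3A110C, and fell by 1.49 ± 0.26 (adjusted p = 0.0102). That call was lost without H3A110Cgsh1Δ replicate 3 (adjusted p = 0.0569, the largest of 12 alternatives). ZRT3 had 222, 199 and 249 CPM in H3A110Cgsh1Δ, against 168, 170.4 and 163 CPM in H3A110C, a log2 difference of 0.41 ± 0.11 with an adjusted p of 0.0523. It passed in 4 of the 12 alternatives, in which its adjusted p ran from 0.00252 to 0.202. COT1 rose by 1.13 ± 0.11 (adjusted p = 0.000765), ADE17 fell by 0.91 ± 0.11 (adjusted p = 0.0022) and ADH3 fell by 0.38 ± 0.10 (adjusted p = 0.0465).

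For the histone change, 0 members were called in WT, in gsh1Δ or in SC. In H3A110C against WT in SCEG, 0 of 10 passed in edgeR and in DESeq2, where 0.0353% of 5671 genes were called and 340 had an unadjusted p below 0.05, 1 of them a member. YOR387C was the member with the smallest p, with 3.98, 4.92 and 5.35 CPM in H3A110C against 9.81, 5.62 and 8.57 CPM in WT (log2 fold change -0.75 ± 0.29, unadjusted p = 0.0298, adjusted p = 0.727). ZPS1 had 10.3, 12.7 and 16.3 CPM in H3A110C, against 15.01, 17.9 and 20.9 CPM in WT (-0.45 ± 0.22, adjusted p = 0.871). In H3A110Cgsh1Δ against gsh1Δ, 0 of 10 passed in edgeR and in DESeq2, with 0.844% of 5690 genes called. An unadjusted p below 0.05 was found for 3 members and for 892 of the 5690 genes (15.7%). All SCEG libraries in 1 fit called ZRT3 (adjusted p = 0.0465). ZRT1, ZRT3 and ZPS1 had lower values in each of the 3 H3A110Cgsh1Δ libraries than in any gsh1Δ library, as had 11.7% of all genes tested (the other 7 members overlapped), by 0.31 ± 0.11, 0.35 ± 0.11 and 0.52 ± 0.19 on the log2 scale (adjusted p = 0.225, 0.189 and 0.224). The test of whether the H3A110C effect differed between gsh1Δ and GSH1 strains called 0 of 10 members in edgeR and in DESeq2, with 0.365% of 5751 genes called. At an unadjusted p below 0.05 there were 1 member and 804 of the 5751 genes. The smallest adjusted p among the members was 0.164, for ZRT3 (-0.45 ± 0.14).

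In SC, H3A110C against WT called 0 of the 9 members that passed the filter, in edgeR and in DESeq2, with 0.0174% of 5737 genes called and 24 at an unadjusted p below 0.05, 0 of them members. The fitted values of VEL1 (-2.38 ± 1.29), ZPS1 (-1.68 ± 1.37) and ADH4 (-0.73 ± 0.48) were the farthest from 0, each with an adjusted p of 0.9999 in edgeR. ZPS1 had 16.02, 94.7 and 14.1 CPM in H3A110C, against 13.1, 37.6 and 355 CPM in WT, and without library C of WT its log2 fold change was 0.72.

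Library C of WT in SC stood apart from the other SC libraries in 5 of the 10 genes. ADH4 was at 257 CPM there, against 76.3 to 88.5 CPM in the other 5 SC libraries. ZRT1 was at 1267 CPM, against 97.9 to 588 CPM. YOR387C was at 17.4 CPM (194 counts), against 0.293 to 1.43 CPM (at most 14 counts), and VEL1 at 32.2 CPM (360 counts), against 1.37 to 2.77 CPM (at most 25 counts). Of 5737 genes that passed the filter in SC, 4 (0.0697%) were more than 2 times as high in this library as in every other SC library, and these 4 were ZRT1, ADH4, ZPS1 and VEL1. YOR387C, which did not pass the filter, was 12.1 times as high as in the next library. ZAP1 was at 73.0 CPM, 1.19 times the next library, and ZRT3 at 229 CPM, 1.10 times, whereas ZRT2, ZRC1 and ZRG17 were within the range of the others.

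The 22 other Zap1-activated genes held 0 that were more than 2 times as high in library C as in every other SC library, though 6 of them were highest in it, with 11.3% of all genes highest in it. ADH1 had 6714 CPM there, below the 8281 to 13131 CPM of the other 5, and ADH3 had 377 CPM, below 419 to 558 CPM. ZRT1 was also low in library A of WT at 97.9 CPM, against 445 to 588 CPM in H3A110C and 503 CPM in library B of WT, so 1267 CPM and 97.9 CPM were both WT values. ZPS1 was next highest in the 2 letter B libraries, at 94.7 CPM in H3A110C and 37.6 CPM in WT, against 13.1 to 16.02 CPM in the letter A and C libraries other than library C of WT. What set library C apart was not tested, and no label gives a difference in its culture.

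**Figure D5:**
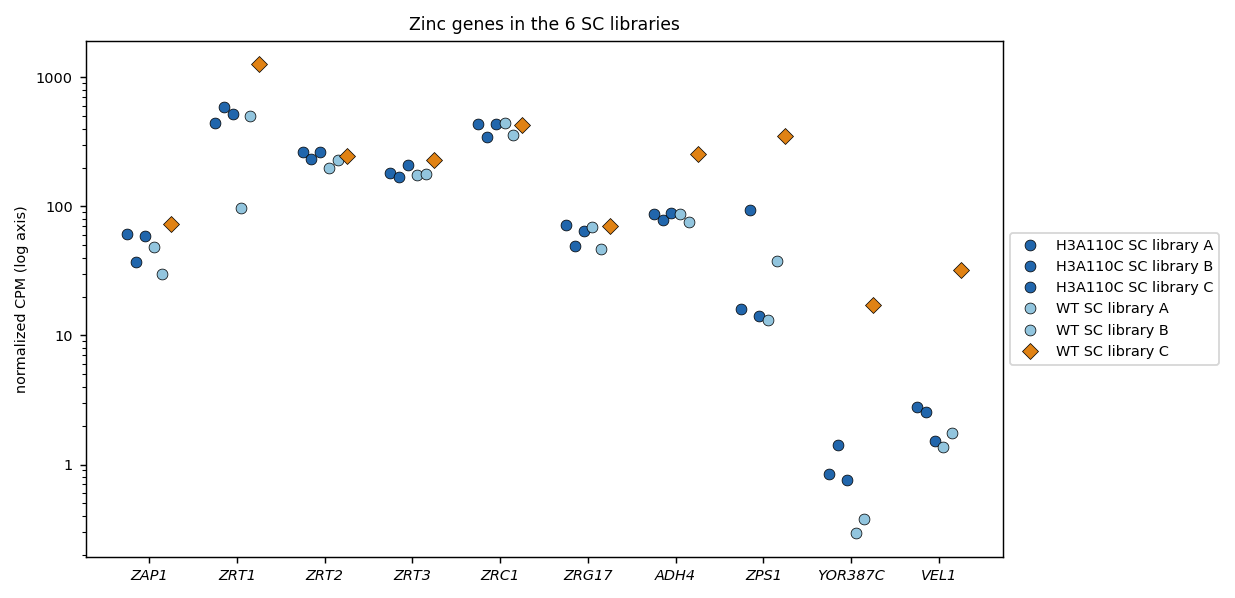
Normalized CPM (log axis) of the 10 genes in the 6 SC libraries, H3A110C in dark blue and WT in light blue, with library C of WT as orange diamonds. Library C of WT stands above the other 5 in ZRT1 (1267 CPM), ADH4 (257 CPM), ZPS1 (355 CPM), YOR387C (17.4 CPM) and VEL1 (32.2 CPM).

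Levels in SCEG were set against SC within each strain. In WT, 0 members rose and 3 of 10 fell, where 25.6% of 5816 genes were called higher and 25.3% lower. ZRT2 had 82.1, 99.7 and 97.7 CPM in SCEG, against 198, 229.8 and 248 CPM in SC, and fell by 1.27 ± 0.13 (adjusted p = 0.000306). ZRC1 had 228, 255 and 244 CPM in SCEG, against 444, 356 and 427 CPM in SC, and fell by 0.75 ± 0.11 (adjusted p = 0.00168). ADH4 fell by 1.42 ± 0.47 (adjusted p = 0.0401), a call that was lost without any 1 of the WT SCEG replicates 1, 2 and 3 (adjusted p = 0.0968 to 0.117, and up to 0.117 over 10 alternatives). Without library B of WT in SC, 7 members were called lower in SCEG (the exceptions were ZRT1, YOR387C and VEL1), and 5 without library A.

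In H3A110C, 1 member rose and 4 fell in SCEG against SC, where 23.8% of 5795 genes were called higher and 23.4% lower. ZRT1 had 106, 116 and 213 CPM in SCEG, against 445, 588 and 522 CPM in SC, and fell by 1.82 ± 0.28 (adjusted p = 0.00215). ZRT2 fell by 1.23 ± 0.10 (adjusted p = 0.000163), ZRC1 by 0.65 ± 0.12 (adjusted p = 0.00418) and ADH4 by 0.64 ± 0.12 (adjusted p = 0.00448). YOR387C had 3.98, 4.92 and 5.35 CPM in SCEG, against 0.843, 1.43 and 0.758 CPM in SC, and rose by 2.23 ± 0.32 (adjusted p = 0.0014). Its SC values rest on 7, 14 and 8 counts, and it did not pass the filter within SC. YOR387C thus entered this test only through the SCEG libraries, where it was high, so its call is a description. In WT the same gene was at 0.36 ± 1.24 (adjusted p = 0.831), and without library C of WT in SC it was at 4.52 (adjusted p = 0.000929; 0.000929 to 0.941 over 9 alternatives) and without library A at -0.19. Libraries A and B of WT in SC held 3 counts each of YOR387C, so the value of 4.52 has the same limit. The test of whether the H3A110C effect differed between the media called 0 of 10 members in edgeR and in DESeq2, with 0% of 5915 genes called and 112, 0 of them members, at an unadjusted p below 0.05. Among the 22 other Zap1-activated genes, 4 rose and 6 fell in WT, next to 25.6% and 25.3% of all genes. In H3A110C, 3 rose and 6 fell, next to 23.8% and 23.4%. These counts were near or below the shares over all genes. PIS1, phosphatidylinositol synthase, fell by 1.32 ± 0.10 in WT (adjusted p = 0.000113) and by 1.18 ± 0.09 in H3A110C (adjusted p = 0.000111), and IZH2 by 1.19 ± 0.16 (adjusted p = 0.00103) and 1.22 ± 0.14 (adjusted p = 0.000571). ADH1 fell by 1.84 ± 0.24 in WT (adjusted p = 0.000917) while ADH3, named after its value was seen, rose by 1.21 ± 0.16 (adjusted p = 0.000873). COT1 rose by 1.59 ± 0.09 (adjusted p = 2.61e-05).

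The genes most like ZPS1 over the 20 SCEG libraries were found by Pearson's r of log2 CPM among 5874 genes. They were ADH4 (r = 0.977), YOR387C (0.971), VEL1 (0.947), the phosphate transporter gene PHO89 (0.941) and the cell wall mannoprotein gene TIR2 (0.931). PHO89 averaged 9.499 CPM in H3A110Ccup1F8*, 86.2 CPM in cup1F8* and 21.9 CPM in WT. The genes most like ZRT1 were ADH4 (r = 0.944), ZRT2 (0.933), ZPS1 (0.925), VEL1 (0.916) and TOS1 (0.914). Of the members, ZRT3 (r = 0.676 with ZPS1), ZRG17 (0.25) and ZRC1 (-0.41) were the least like ZPS1. ZPS1, ZRT1, ZRT2, ZRT3 and ADH4 were selected on values that include the cup1F8* libraries, so high r among them is partly set by that choice. The libraries are not independent draws in this measure, since the 4 cup1F8* libraries are high in most of these genes. Without them, over 16 libraries, PHO89 had the highest r with ZPS1 (0.89) and no member was among the first 5 for ZPS1 or for ZRT1.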

How the data were processed

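The deposited table holds raw counts, which the authors made per ORF by aligning stranded poly(A) reads to R64-1-1 (sacCer3) with HISAT2 and counting them with featureCounts; versions are not given in the sources used here. A deposited normalized table was not used. The members and gene lists were chosen with earlier results of these data known. Counts were tested pair by pair with edgeR 4.0.16 (R 4.3.3, TMM, filterByExpr, quasi-likelihood F test, Benjamini-Hochberg over all genes passing the filter, threshold 0.05), the script being tested on simulated data; the standard error is the unshrunk coefficient divided by the root of F. Alternatives were DESeq2 1.42.0 size factors or Wald test, total counts, no filter, all SCEG libraries in 1 fit, a replicate block, and each library left out. Named genes were the members, MNT2 for its position, and up to 3 called genes per direction and comparison from the lists. The 5 genes with the highest r with ZPS1 and ZRT1 (log2 CPM, prior count 2) were also named. FZF1, HPF1 and FRE7 were added as neighbours, and COT1, IZH3, PHO84 and ADH3 in some comparisons, after their values were seen. SC columns were assigned to a group by strain only. Of 6692 IDs, 6008 matched the R64 annotation. Total counts ran from 2917138 to 12305863, so 3 counts correspond to 0.244 to 1.03 CPM; replicates were stated to be independent experiments.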

Additional observations from a re-analysis of the deposited data

Results flagged for a closer look

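In the groups of 4 libraries, 3 values stood apart from the other 3 of their group by a Dixon gap test at the 95% level, which chance gives in about 1 of 20 groups. ZRT2 was at 217 CPM in the highest cup1F8* library, ZRC1 at 225 CPM in the highest H3A110Ccup1F8* library, and VEL1 at 18.6 CPM in the lowest cup1F8* library. The gap was 0.877, 0.855 and 0.907 of the range of the group in that order, and 20 groups were looked at.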

How the results depend on the processing

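Across 142 results and their alternatives, 1736 of 1811 values were labelled the same. A tested gene was the same if it stayed on its side of the threshold, and a called gene also had to keep its sign. A count of called genes could change by a limited factor. Values given without a test had to stay within their spread or standard error. Genes not called could change sign, as ZPS1 did in H3A110C against WT in SC (-3.64 to 0.72). With all SCEG libraries in 1 fit, H3A110Cgsh1Δ against gsh1Δ called 1 member, ZRT3 (-0.35), in place of 0. In H3A110Cgsh1Δ against H3A110C, 2 members were called in place of 1 with DESeq2 size factors, the DESeq2 Wald test and all SCEG libraries in 1 fit. With total counts, ZRC1 in cup1F8* against WT was at 0.028, not -0.13. Leaving out 1 library at a time, members called ran from 1 to 3 in gsh1Δ against WT, 0 (without H3A110Cgsh1Δ replicate 3) to 3 (without its replicate 2) in H3A110Cgsh1Δ against H3A110C, 2 to 7 (without WT SC library B) in WT SCEG against SC and 5 to 6 in H3A110C SCEG against SC, and were 0 throughout in the 3 H3A110C contrasts without cup1F8* and both interaction tests. The member median ran from 1.70 (without WT replicate 1) to 2.02 in cup1F8* against WT, -2.53 to -2.37 in H3A110Ccup1F8* against cup1F8* and -0.42 to -0.29 in H3A110Ccup1F8* against H3A110C. The causes were not tested. In SCEG, deviations of libraries with the same replicate number correlated from -0.17 to 0.459 (median 0.027). Those with different numbers correlated from -0.47 to 0.425 (median -0.016). In H3A110C against WT, the same-number values were 0.056, 0.459 and 0.311, and the different-number values ran from -0.47 to 0.137. Whether the numbers pair the samples was not tested. A replicate block gave 3 calls in gsh1Δ against WT, 1 in H3A110Cgsh1Δ against H3A110C and 0 in the other tests. With the block, the medians were 1.91, -2.42 and -0.33 in the 3 cup1F8* comparisons above. In SC, same-letter libraries correlated from 0.623 to 0.886, and different-letter libraries from -0.822 to 0.754. Letters A and C of different strains correlated at 0.685 and 0.754, whereas letter B correlated negatively with both. With letter as a block or without both letter B libraries, 0 members were called. Depth limits the paralogs: YOR387C had 3 counts in each of libraries A and B of WT in SC, and VEL1 had 4 in H3A110Cgsh1Δ replicate 3.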
